A study of Mytilus galloprovincialis with 12 samples.

Results

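The departure of a combined treatment from additivity was measured for every clone of a mussel cDNA array. On the log2 scale it is the mean of the CHP/E2 arrays minus the mean of the CHP arrays minus the mean of the E2 arrays, so that 0 means that the ratio after both treatments equals the product of the ratios after each one alone. All 12 arrays of the series entered the measure, 4 for each of the 3 treatments. The array holds 1920 clones, each spotted 2 times, and the 1816 clones with a deposited log2 ratio were tested. No source used here gives a gene name for these clone identifiers, so the clones are named by identifier only and nothing is said of their function.

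Chlorpyrifos (CHP) is an organophosphate insecticide whose oxon metabolite blocks acetylcholinesterase. 17β-estradiol (E2) is the natural estrogen of vertebrates. The digestive gland of bivalves takes up, digests and distributes nutrients, accumulates contaminants and is a target of both compounds. An additive outcome is what is expected where each compound changes a transcript by its own factor whatever the other does. A positive departure places the combined level above that product, and a negative one places it below.

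Female mussels, Mytilus galloprovincialis, received CHP in the water at 4.5 mg/l per animal (CHP), an injection of 25 pmol E2 into the posterior adductor muscle (E2), or CHP followed by the injection (CHP/E2). By the methods of the study, CHP animals were injected with the ethanol vehicle, and E2 animals were kept in the DMSO vehicle before their injection. By the labels CHP animals were exposed for 4 days and CHP/E2 animals for 3, whereas the methods of the study describe the same exposure for both, with sampling a day after the injection. Digestive glands were pooled from 6 animals, and every array set 1 treated pool against RNA from vehicle animals, kept 4 days in 0.02% DMSO and injected after 3 days with 50 µl of artificial sea water holding 0.05% ethanol. Treated RNA was in Cy5 on 9 arrays and in Cy3 on the other 3 (replicate 3 of CHP and replicate 4 of both E2 and CHP/E2), whose ratios were turned to treated over vehicle. Because every array shares the kind of reference, the departure also equals the effect of E2 after CHP (CHP/E2 minus CHP) minus the effect of E2 alone. That reading takes the CHP exposure as equal in both groups. If the labels hold, CHP/E2 minus CHP also contains the shorter exposure, which cannot be told apart from the effect of E2. No array compared vehicle with vehicle. In the scan names E2 replicates 2 and 4 carry the same treated pool number, as do CHP/E2 replicates 3 and 4, so that p-values measure the spread between these arrays, some of which may be technical. Vehicle pool numbers also recur across treatments, so arrays with one number may share an error of the reference that the fit treats as independent.

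Arrays differed in brightness. The median clone spot was between 1.48 and 3.29 times its local background in the treated channel and between 1.15 and 3.92 times in the reference channel, and 62.9% to 85.7% of clone spots exceeded background by 2 SDs in at least 1 channel. No spot was saturated. The number of arrays limits the precision. Arrays with the same dye orientation correlated as low as -0.57 (CHP replicate 4 with CHP/E2 replicate 2), and the direction of the ratios was kept because the labels state the dyes.

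Over the 1816 clones the departure had a median of 0.00, with quartiles of -0.19 and 0.15. Its standard error had a median of 0.16 and ranged from 0.06 to 1.97. A clone was called when B, the log odds of a true departure in limma, exceeded 0. This threshold was passed by 10 of 1816 clones, or 0.551% of those tested, of which 6 (0.33%) lay above the sum of the single treatments and 4 (0.22%) below it. With p adjusted by Benjamini-Hochberg in limma, 5 clones passed at 0.05 (0.275%), 4 above and 1 below. At an unadjusted p under 0.05 the count was 246 (13.5%), with 130 above (7.16%) and 116 below (6.39%). The same B threshold was passed by 39 clones in the CHP ratio (2.15%), 8 in the E2 ratio (0.441%) and 14 in the CHP/E2 ratio (0.771%).

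**Figure D1:**
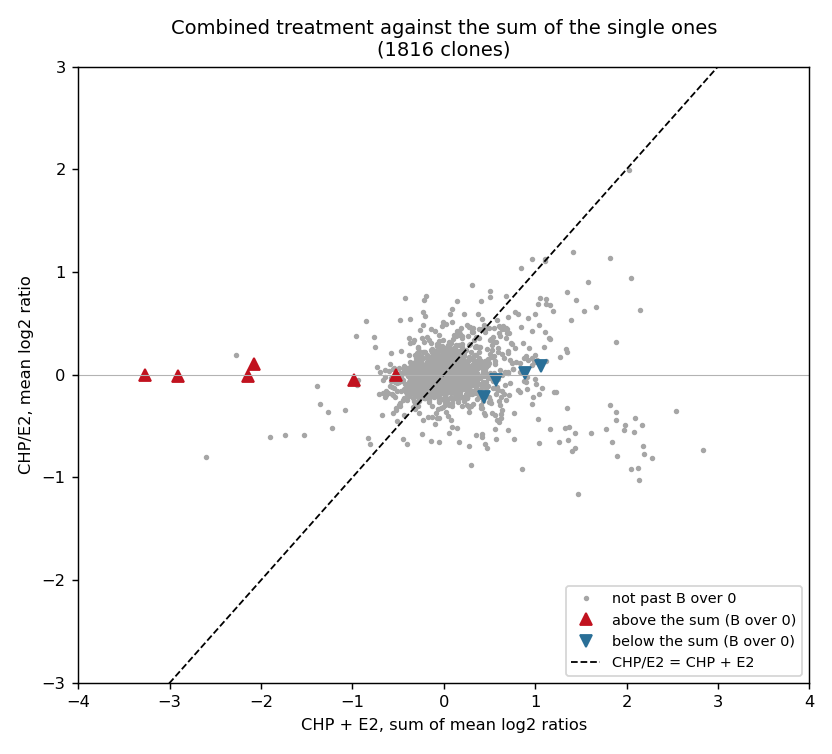
Mean log2 ratio of CHP/E2 (vertical axis) against the sum of the mean log2 ratios of CHP and E2 (horizontal axis) for 1816 clones, each a mean of 4 arrays per treatment, with additivity as the dashed line. The 6 clones called above the sum and the 4 called below it lie near 0 on the vertical axis, with CHP/E2 means between -0.22 and 0.11.

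In 4 clones a lower level after either compound alone was not seen after both. Myt01-008H06, Myt01-009F03, Myt01-004D03 and Myt01-010F03 fell after CHP to between 0.258 and 0.467 of the vehicle level and after E2 to between 0.401 and 0.551. After CHP/E2 they measured between 0.993 and 1.08 of it. The product of the single ratios is between 0.104 and 0.237. In limma all 4 passed B over 0 for E2, with an adjusted p of 0.00761 for Myt01-008H06 and Myt01-009F03. For Myt01-004D03 it was 0.085 and for Myt01-010F03 0.0655.

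For Myt01-008H06 the log2 ratios were -2.16, -1.41, -1.96 and -2.29 after CHP, -0.86, -1.49, -1.49 and -1.42 after E2, and 0.21, 0.09, 0.25 and -0.55 after CHP/E2, in the order of replicates 1 to 4 here and for every clone. All 8 arrays of the single treatments were below the vehicle level, and all 4 CHP/E2 arrays lay above every one of them. The means were -1.95 ± 0.39 (CHP), -1.32 ± 0.31 (E2) and -0.00 ± 0.38 (CHP/E2) (SD, n = 4 each). The sum of the single treatments is -3.27, so the departure was 3.27 (SE 0.29, 95% interval 2.64 to 3.90, adjusted p 0.00035 in limma), or 9.63 times the product of the single ratios.

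Myt01-009F03 measured -1.42, -1.19, -1.90 and -1.86 with CHP, -0.70, -1.44, -1.51 and -1.62 with E2, and 0.32, -0.03, 0.12 and -0.46 with CHP/E2 (log2). Again the CHP/E2 arrays all lay above the 8 others. With means of -1.59 ± 0.35, -1.32 ± 0.42 and -0.01 ± 0.33 (SD, n = 4 each), the departure was 2.90 (SE 0.29, 95% interval 2.25 to 3.54, adjusted p 0.000738 in limma), 7.46 times the product.

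Lower in size was the departure of Myt01-004D03, which had log2 ratios of -1.36, -0.91, -1.39 and -1.23 after CHP, -0.42, -0.92, -0.95 and -1.15 after E2, and 0.36, 0.45, 0.18 and -0.57 after CHP/E2. The CHP/E2 arrays lay above all CHP arrays but overlapped the E2 arrays, through CHP/E2 replicate 4 and E2 replicate 1. Its means were -1.22 ± 0.22, -0.86 ± 0.31 and 0.11 ± 0.47 (SD, n = 4 each), and it departed from the sum by 2.19 (SE 0.28, 95% interval 1.57 to 2.80, adjusted p 0.00472 in limma), 4.55 times the product.

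Myt01-010F03 gave -1.18, -0.89, -1.30 and -1.01 with CHP, -0.40, -1.16, -0.98 and -1.63 with E2, and 0.21, 0.21, 0.20 and -0.66 with CHP/E2 (log2). CHP/E2 replicates 1 to 3 were nearly equal and above the vehicle level, and replicate 4 overlapped the E2 arrays. The means were -1.10 ± 0.18, -1.04 ± 0.51 and -0.01 ± 0.43 (SD, n = 4 each), with a departure of 2.13 (SE 0.32, 95% interval 1.43 to 2.83, adjusted p 0.0154 in limma), 4.38 times the product.

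**Figure D2:**
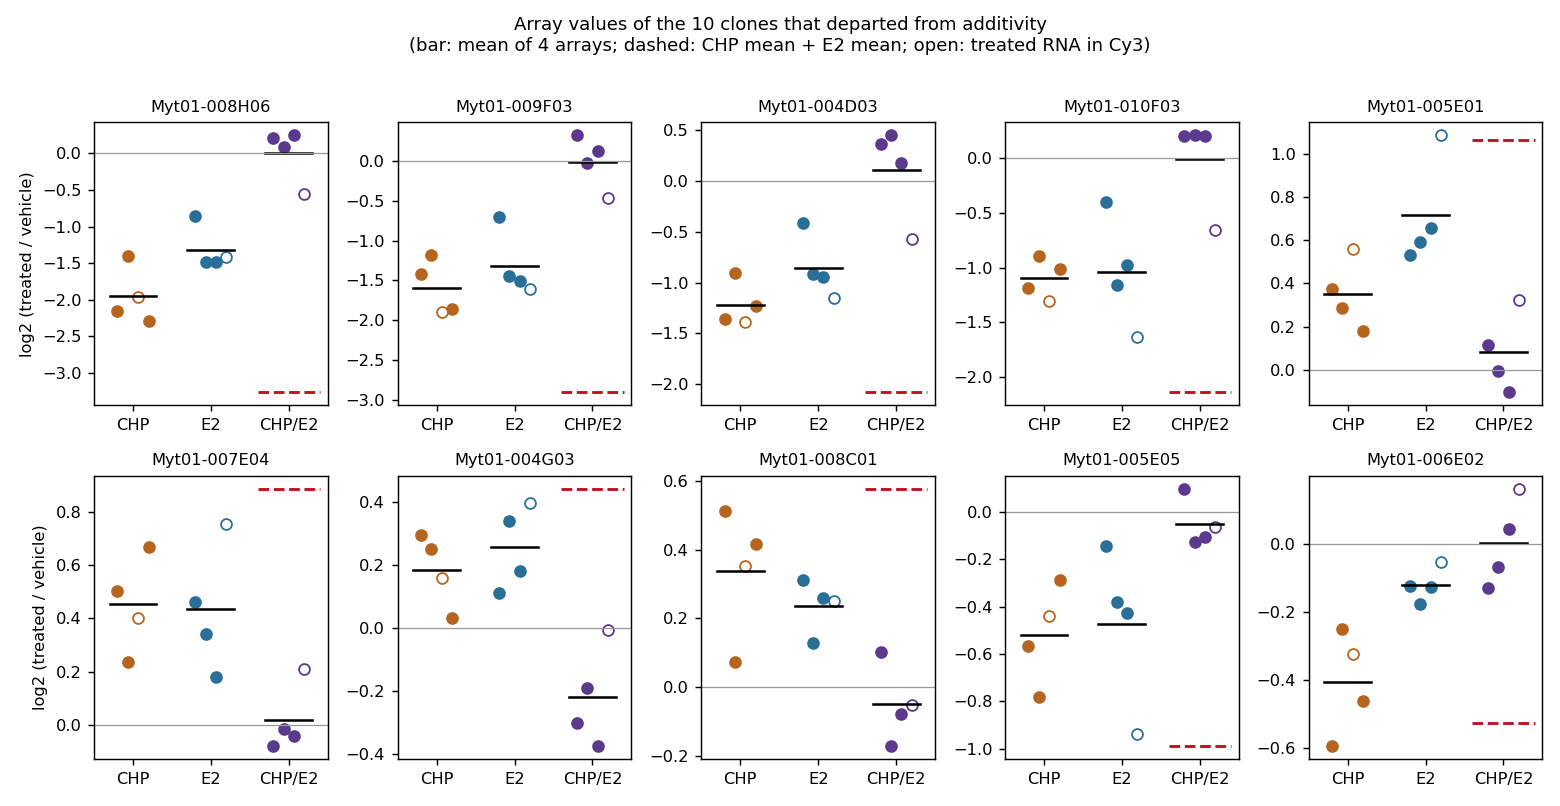
Log2 ratio of treated to vehicle RNA on each of the 12 arrays for the 10 clones with B over 0, by treatment, with the vertical scale set per clone. Bars are means of 4 arrays, open points are arrays with treated RNA in Cy3, and the dashed line is the CHP mean plus the E2 mean, which for Myt01-008H06 is -3.27 against a CHP/E2 mean of -0.00.

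CHP/E2 replicate 4, one of the arrays with exchanged dyes, was the lowest CHP/E2 array in each of these 4 clones. With a term for the dye in the fit their departures were 3.34, 3.02, 2.31 and 2.29, and their dye effects were 0.15 ± 0.11, 0.23 ± 0.09, 0.25 ± 0.08 and 0.32 ± 0.08 (SE, log2), in the order given above. All 4 passed B over 0 with the dye term, without the 3 arrays of exchanged dyes and with any 1 array left out. Myt01-010F03 lost its call where arrays were centred on their median without loess (departure 2.17). With that centring the adjusted p of the departure was 0.063 to 0.204 in limma over the 4 clones. None of them then passed B over 0 for E2 against vehicle. All 24 spots of the first 3 clones exceeded background by 2 SDs in both channels. For Myt01-010F03 the counts were 20 in the treated channel and 22 in the reference channel, and on the E2 arrays 5 of 8 treated-channel spots did so.

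A pair of further clones lay above the sum with smaller departures. Myt01-005E05 measured -0.57, -0.78, -0.44 and -0.29 after CHP, -0.14, -0.38, -0.43 and -0.94 after E2, and 0.10, -0.13, -0.10 and -0.06 after CHP/E2 (log2). Every single-treatment array was below the vehicle level, and the CHP/E2 arrays lay above them all, by a narrow margin for E2 replicate 1. The departure was 0.94 (SE 0.19, 95% interval 0.51 to 1.37, adjusted p 0.101 in limma), on means of -0.52 ± 0.21, -0.47 ± 0.33 and -0.05 ± 0.10 (SD, n = 4 each).

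The other, Myt01-006E02, had values of -0.59, -0.25, -0.32 and -0.46 after CHP, -0.12, -0.18, -0.13 and -0.05 after E2, and -0.13, -0.07, 0.04 and 0.16 after CHP/E2. Its CHP/E2 arrays lay above all CHP arrays and overlapped the E2 arrays. The E2 mean of -0.12 ± 0.05 (SD, n = 4) did not pass the threshold against vehicle (adjusted p 0.675 in limma), whereas the clone fell after CHP, by 0.41 on the log2 scale (adjusted p 0.00574). Its CHP/E2 mean was 0.00 ± 0.13, and its departure was 0.53 (SE 0.11, 95% interval 0.29 to 0.77, adjusted p 0.103).

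Both calls depended on single arrays and on the processing. Myt01-005E05 passed B over 0 in 8 of 20 other settings, with 0.52 where no background was corrected and 1.42 on the deposited ratios. Among the fits without 1 array it passed only without CHP replicate 4, E2 replicate 1 or E2 replicate 4. Without any 1 of the other 9 arrays it missed the threshold, with departures of 0.85 to 0.97. Myt01-006E02 passed in 6 of 20 other settings, with 0.33 on the deposited ratios and 0.35 with loess per print block, and among the fits without 1 array only without CHP replicate 2 or CHP/E2 replicate 1. In the other 10 such fits its departure was 0.47 to 0.56. Both clones missed the threshold with slide as a random block, with the replicate number as a block, and with arrays of 1 treated pool number averaged. Of the 24 spots of Myt01-005E05, 19 exceeded background by 2 SDs in the treated channel and 18 in the reference channel, the fewest of the 10 clones.

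The 4 clones below the sum had the mirror pattern: levels above vehicle on all 8 arrays of the single treatments, and CHP/E2 means between -0.22 and 0.08. The CHP/E2 level was 1.54 to 1.98 times lower than the product of the single ratios. Myt01-005E01 rose after E2 (mean 0.72 ± 0.25, SD, n = 4, adjusted p 0.0091 in limma), and Myt01-007E04 rose after CHP (0.45 ± 0.18, adjusted p 0.0232). The remaining single-treatment ratios of the 4 clones did not pass B over 0.

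Myt01-005E01 measured 0.37, 0.29, 0.56 and 0.18 after CHP, 0.53, 0.59, 0.66 and 1.09 after E2, and 0.11, -0.01, -0.11 and 0.33 after CHP/E2 (log2). Its CHP/E2 arrays lay below all E2 arrays and overlapped the CHP arrays. The CHP mean was 0.35 ± 0.16 and the CHP/E2 mean 0.08 ± 0.19 (SD, n = 4 each), and the departure was -0.99 (SE 0.17, 95% interval -1.36 to -0.61, adjusted p 0.0431 in limma). Of the 4 clones only this one passed the adjusted p threshold, and it lost B over 0 only where no background was corrected (departure -0.69), among 20 other settings and 12 fits without 1 array.

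For Myt01-007E04 the log2 ratios were 0.50, 0.24, 0.40 and 0.67 after CHP, 0.46, 0.34, 0.18 and 0.75 after E2, and -0.08, -0.02, -0.04 and 0.21 after CHP/E2. The CHP/E2 arrays lay below all CHP arrays and overlapped the E2 arrays, since CHP/E2 replicate 4 was above E2 replicate 3. The E2 mean was 0.43 ± 0.24 and the CHP/E2 mean 0.02 ± 0.13 (SD, n = 4 each), and the departure was -0.87 (SE 0.16, 95% interval -1.22 to -0.52, adjusted p 0.061 in limma). It missed B over 0 without CHP replicate 1, E2 replicate 1 or CHP/E2 replicates 1, 2 or 3, with departures of -0.86 to -0.84. It also missed it with slide as a random block (-0.83), and its departure was -0.54 with no background correction.

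In Myt01-004G03 the values were 0.29, 0.25, 0.16 and 0.03 after CHP, 0.11, 0.34, 0.18 and 0.40 after E2, and -0.30, -0.19, -0.37 and -0.01 after CHP/E2. It was the 1 clone of the 10 whose CHP/E2 arrays lay wholly on the other side of the vehicle level from the single treatments, and they overlapped neither group. The means were 0.18 ± 0.12, 0.26 ± 0.13 and -0.22 ± 0.16 (SD, n = 4 each), and the departure was -0.66 (SE 0.12, 95% interval -0.93 to -0.39, adjusted p 0.061 in limma). Without CHP replicate 1 or 2, E2 replicate 2 or 4, or CHP/E2 replicate 1 or 3 it missed the threshold, with departures of -0.64 to -0.61. The clone passed in 14 of 20 other settings, and missed B over 0 with loess per print block (-0.49), median centring (-0.55), the deposited ratios (-0.61), the replicate number as a block (-0.66) and plain background subtraction (-0.75).

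Myt01-008C01 gave 0.51, 0.07, 0.35 and 0.41 with CHP, 0.31, 0.13, 0.26 and 0.25 with E2, and 0.10, -0.17, -0.08 and -0.05 with CHP/E2. The CHP/E2 arrays lay below all E2 arrays and overlapped the CHP arrays through CHP replicate 2. On means of 0.34 ± 0.19, 0.24 ± 0.08 and -0.05 ± 0.11 (SD, n = 4 each) the departure was -0.62 (SE 0.12, 95% interval -0.89 to -0.36, adjusted p 0.0718 in limma). It kept its call only without CHP replicate 2, E2 replicate 2 or CHP/E2 replicate 1, and the departure was -0.62 to -0.57 without any 1 of the other 9 arrays. It passed in 10 of 20 other settings, and those it missed included the dye term (-0.63), slide as a random block (-0.64), arrays of 1 treated pool number averaged (-0.64), the filter on dim clones and spot 2 alone (-0.62 each).

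Read as the effect of E2, the 10 departures joined a mean effect of one sign without CHP to a mean effect of the other sign after CHP. Selection by the departure favours opposite signs, since the effect of E2 alone enters it with a minus sign. For Myt01-006E02 the 95% interval of the effect without CHP included 0 (-0.26 to 0.02). E2 alone changed Myt01-008H06 by -1.32, and E2 after CHP changed it by 1.95 (SE 0.23, 95% interval 1.44 to 2.47, adjusted p 0.00786 in limma). In Myt01-009F03 the effect of E2 after CHP was 1.58 (SE 0.24, adjusted p 0.0344 in limma), against -1.32 for E2 alone. In Myt01-004D03 the effect after CHP was 1.33 (SE 0.23, adjusted p 0.0691), which passed B over 0. These 3 were the clones of the whole array that passed B over 0 for CHP/E2 minus CHP, 0.165% of those tested.

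The effect of E2 after CHP was 1.09 in Myt01-010F03, 0.47 in Myt01-005E05 and 0.41 in Myt01-006E02, and it ran from -0.43 to -0.27 in the 4 clones below the sum. None of these 7 passed B over 0. Its adjusted p was between 0.184 and 0.409 in limma, and the 95% interval included 0 only for Myt01-005E01 (-0.57 to 0.04). An effect of opposite sign alone and after CHP was found in 997 of all 1816 clones (54.9%).

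**Figure D3:**
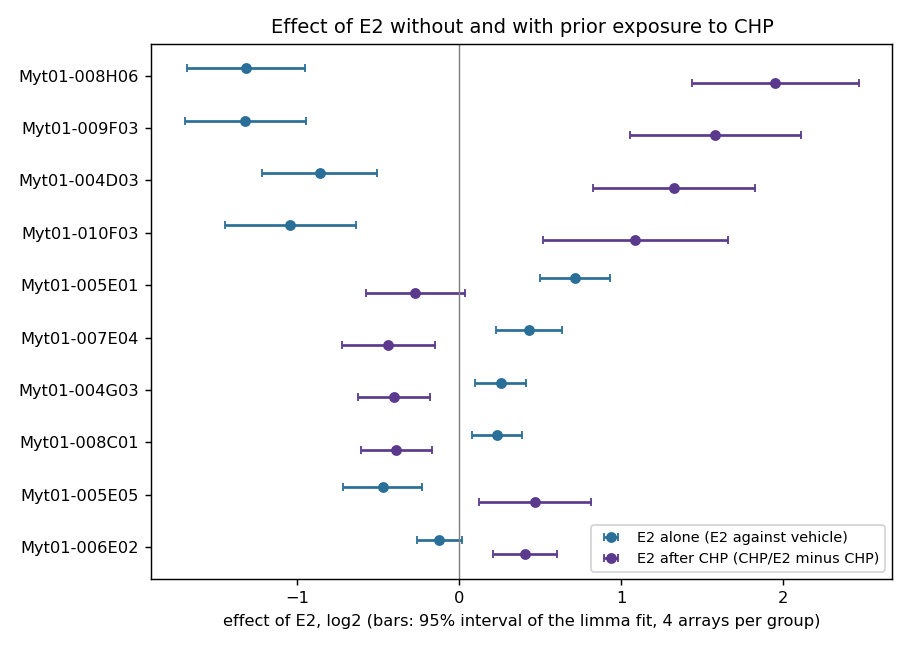
Effect of E2 in log2 units for the 10 clones, without CHP (E2 against vehicle) and after CHP (CHP/E2 minus CHP), with 95% intervals from the limma fit on 4 arrays per group. The points lie on opposite sides of 0 in all 10 clones, and for Myt01-008H06 they are -1.32 and 1.95.

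Read the other way, as the effect of CHP in injected animals (CHP/E2 minus E2), the difference was 1.31 in Myt01-008H06 (SE 0.23, adjusted p 0.0744 in limma) and 1.31 in Myt01-009F03 (SE 0.24, adjusted p 0.0744). Both passed B over 0, as 6 of all clones did (0.33%). The other 8 clones did not, with differences between -0.64 and 1.03. An unadjusted p under 0.05 was reached by 9 of the 10 for this difference (8.87% of all clones) and by 9 for CHP/E2 minus CHP (13.6% of all).

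The 10 clones shared a shape. CHP and E2 had one sign and the departure the other in 10 of 10 clones, against 957 of all 1816. In 9 of them CHP/E2 was also nearer to the vehicle level than either compound alone, which held for 426 of 1816 clones (23.5%), and the exception was Myt01-004G03. The single-treatment means enter the departure with a minus sign, so the opposite sign is in part fixed by the arithmetic, and the same arrays stand on both sides of the comparison. Against vehicle, 6 of the 10 passed B over 0 after CHP, 5 after E2 and 0 after CHP/E2, where 1 had an unadjusted p under 0.05.

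Among the 246 clones at an unadjusted p under 0.05, CHP and E2 had one sign and the departure the other in 211, and in 127 (51.6%) CHP/E2 was also nearer to the vehicle level than both. The singles were both lower in 73 of the 127 and both higher in 54. In 35 of the 246 the single treatments had opposite signs, against 756 of all 1816 clones. Selection by the departure favours single treatments of one sign, since both means are subtracted in it. In 0 of the 246 did CHP, E2 and the departure share a sign, a combination found in 103 of 1816 clones. Selection by the departure works against this combination, since the single-treatment means enter it with a minus sign. The median absolute departure was 0.45 among the 130 above the sum and 0.52 among the 116 below it. Of the 246, 142 had an unadjusted p under 0.05 after CHP (against 21.8% of all clones tested), 74 after E2 (8.37% of all) and 57 after CHP/E2 (12.7% of all), and 39 had it for none of the 3.

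CHP/E2 arrays all above every CHP and E2 array were found in 15 clones and all below in 6, together 1.16% of those tested. The 10 called clones held 3 of the first kind (Myt01-008H06, Myt01-009F03 and Myt01-005E05) and 1 of the second (Myt01-004G03).

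The scan names give the vehicle pool for 9 arrays, and pool numbers 2 and 3 were each hybridised with all 3 treatments, on 3 and 4 arrays. The 3 arrays without a vehicle pool number are those with exchanged dyes, so CHP/E2 replicate 4 enters neither pool. Within vehicle pool 2 the departure was 3.74 for Myt01-008H06, 2.83 for Myt01-009F03, 2.73 for Myt01-004D03 and 2.55 for Myt01-010F03. Within vehicle pool 3 the same clones gave 3.59, 3.16, 2.20 and 2.13. Each of the other 6 also kept its sign in both pools, with values of 0.52 to 0.86 for the clones above the sum and -0.99 to -0.58 for those below. These arrays are part of the fit that selected the clones, so the selection favours one sign in both pools. The values carry no test of their own, and the share of all clones with one sign in both was not counted. Over all clones the departure within a pool had an SD of 0.75 (pool 2) and 0.58 (pool 3). No slide held all 3 treatments, so there is no value within a slide.

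The 2 spots of a clone gave like departures over all tested clones, with a correlation of 0.95 and a median absolute difference of 0.07. They had one sign in 10 of the 10 called clones and differed by at most 0.13 (Myt01-006E02, with 0.59 and 0.46). Of these clones 7 passed B over 0 on each spot alone. The spots share arrays and were averaged for the calls, so their likeness is a description.

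The next clones in order of B stood just short of the threshold. Myt01-001E12 had a departure of -1.56 (SE 0.33, adjusted p 0.11 in limma), with log2 ratios of 0.70, 0.35, 1.48 and 1.67 after CHP, 0.70, 0.42, 1.18 and 1.02 after E2, and 0.43, 0.31, 0.12 and 0.41 after CHP/E2. It was above the vehicle level on all 12 arrays and rose after CHP (adjusted p 0.0136), and its reference channel exceeded background by 2 SDs on 5 of 24 spots. It passed B over 0 in 11 of 20 other settings, with departures from -0.76 with no background correction to -2.67 with plain subtraction, and with -2.44 on the deposited ratios (adjusted p 0.00871 in limma). Myt01-018G01 departed by -1.04 (SE 0.23), Myt01-009B07 by -1.13 (SE 0.25) and Myt01-014G02 by 0.52 (SE 0.12), each with an adjusted p of 0.113. In all 3 the mean after CHP/E2 was nearer to the vehicle level than that after CHP: 0.64 and -0.04 for Myt01-018G01, 0.68 and 0.22 for Myt01-009B07, and -0.35 and 0.09 for Myt01-014G02.

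Departures as large as those called were also measured where arrays of a group disagreed. Of the 80 clones beyond 1 in either direction, 16 were above the sum and 64 below it, and 4 of the 80 passed B over 0, all above. In 24 clones the departure was below -2 and 0 of them passed, with standard errors of 1.02 to 1.97. CHP had a mean above 0 in all 24, which selection by a low departure favours, since the CHP mean enters it with a minus sign. Their median log2 ratio was 1.87, -0.56, 3.91 and 3.71 after CHP, -1.30, 0.10, -0.09 and 0.47 after E2, and -1.69, -2.27, -0.88 and 2.55 after CHP/E2 (replicates 1 to 4). CHP replicate 2 lay below the rest of its group in these medians, E2 replicate 1 below the other E2 arrays, and CHP/E2 replicate 4 above the other CHP/E2 arrays.

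Myt01-013D04 had the lowest departure of all, -3.57 (SE 1.07, adjusted p 0.202 in limma). Its log2 ratios were 3.74, -0.22, 4.53 and 3.58 after CHP, -1.26, 0.29, 0.14 and 0.55 after E2, and -1.03, -1.27, -0.81 and 0.19 after CHP/E2. CHP replicates 1, 3 and 4 were far above the vehicle level, and CHP replicate 2 was not. Without CHP replicate 2 the departure was -4.61 and passed B over 0.

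Myt01-015C01, with -3.16 (SE 1.97, adjusted p 0.486), ranged from -1.31 to 5.67 over the CHP arrays and from -3.44 to 3.16 over the CHP/E2 arrays. Above the sum, the largest departures that did not pass were those of Myt01-005D06 (2.46, SE 0.65, adjusted p 0.158) and Myt01-009A12 (1.80, SE 1.56, adjusted p 0.606). The latter changed to 0.69 when E2 replicate 3 was left out, to 1.06 when CHP replicate 1 was, and to 1.12 when CHP/E2 replicate 4 was. Myt01-005D06 measured -1.70, -1.79, 0.16 and -0.33 after CHP, -0.63, -0.55, -2.20 and -2.04 after E2, and -0.39, 0.03, 0.28 and 0.87 after CHP/E2. Its CHP/E2 arrays lay above all E2 arrays and overlapped the CHP arrays.

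**Figure D4:**
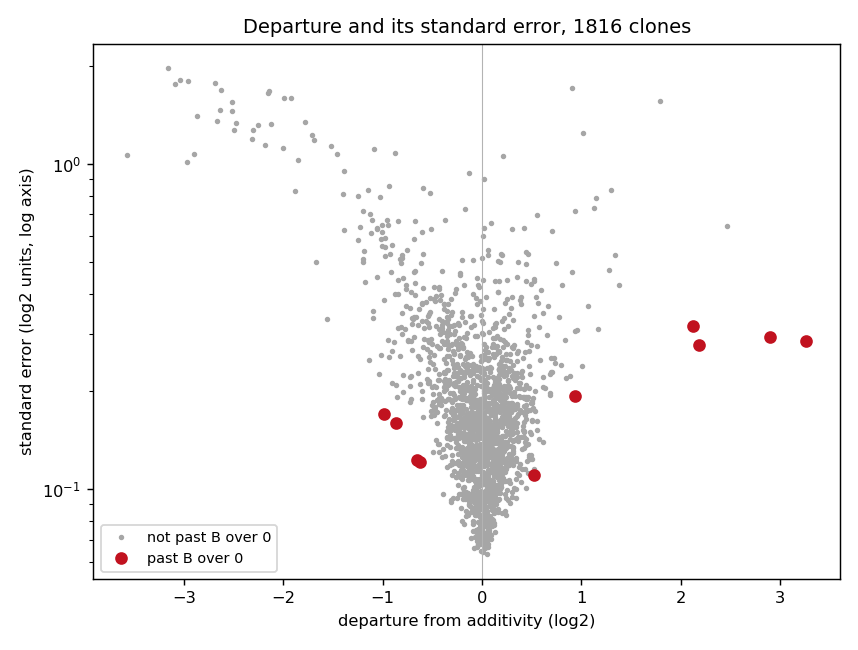
Standard error of the departure (vertical axis, log scale) against the departure (horizontal axis), both in log2 units, for 1816 clones. The 10 clones with B over 0 have standard errors between 0.11 and 0.32, and the 24 clones with departures below -2 have standard errors between 1.02 and 1.97.

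A clone that missed the threshold was not thereby shown to be additive. The 95% interval of the departure had a median width of ±0.36. It lay wholly within ±0.5 for 802 clones (44.2%) and within ±1 for 1499 (82.5%), which leaves 317 clones whose interval reached past 1 in at least 1 direction. For 15 clones the interval lay wholly beyond 0.5, 6 above and 9 below.

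Of the 39 clones that passed B over 0 for CHP, 6 passed it for the departure (0.551% of all clones did) and 26 had an unadjusted p under 0.05 (13.5% of all), with a median departure of -0.31. The 8 clones that passed for E2 held 5 that passed for the departure and 7 with an unadjusted p under 0.05. Of the 14 that passed for CHP/E2, 0 passed for the departure and 3 had an unadjusted p under 0.05. For 9 clones CHP and CHP/E2 both passed. Of these 0 passed for the departure and 1 had an unadjusted p under 0.05, shares near those over all clones. All 9 lay below the sum, with departures of -0.68 to -0.03 and a median of -0.34, and the interval included 0 in 8 of the 9. These lists share arrays with the departure, and the counts are given as a description.

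Myt01-008E11, chosen after its values were seen, is a clone with a large change and a departure close to 0. Its log2 ratios were 1.55, 1.91, 1.83 and 2.00 after CHP, 0.26, 0.22, 0.12 and 0.23 after E2, and 2.46, 1.90, 1.39 and 2.25 after CHP/E2. The level after CHP/E2 overlapped that after CHP and lay above that after E2. The departure was -0.03 (SE 0.24, 95% interval -0.55 to 0.49, adjusted p 0.964 in limma), on a sum of 2.03 and a CHP/E2 mean of 2.00.

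On the linear scale the ratio expected was taken as the CHP ratio plus the E2 ratio minus 1. This sum was below 0 for Myt01-008H06, Myt01-009F03, Myt01-004D03 and Myt01-010F03, so the log2 of observed over expected is undefined for them. Their observed CHP/E2 ratios, 0.993 to 1.08, lay above it. For the other 6 clones the departure from that sum was -0.86, -0.76, -0.63 and -0.58 for Myt01-005E01, Myt01-007E04, Myt01-004G03 and Myt01-008C01, and 1.20 and 0.57 for Myt01-005E05 and Myt01-006E02, each as the log2 of observed over expected. The sign was that of the log2 sum in all 6.

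The 104 clones with no deposited value were fitted with all others. Of these, 0 passed B over 0 and 11 had an unadjusted p under 0.05, with departures from -2.86 to 1.02 and a median of 0.00. The fit of all 1920 clones called 10, the same clones as the fit of 1816.

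**Figure D5:**
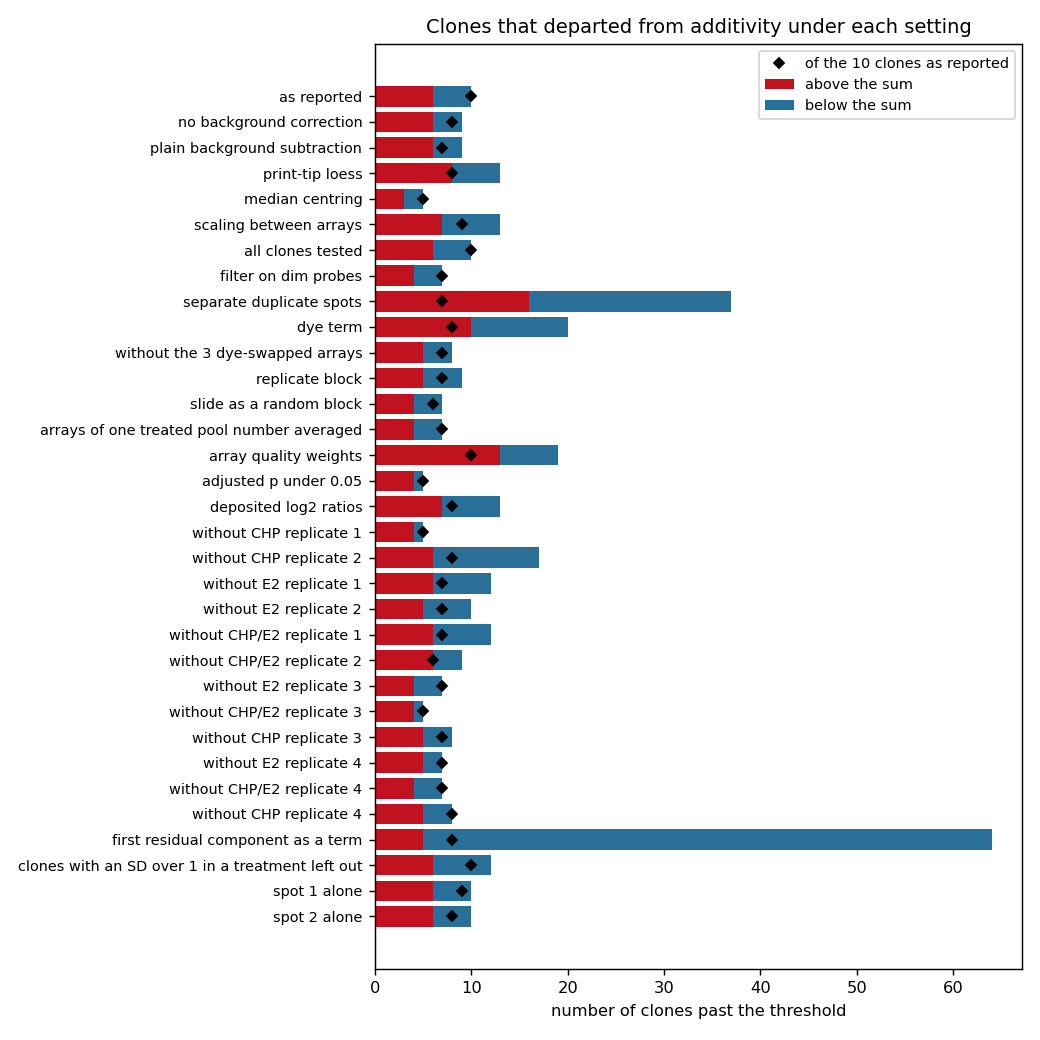
Number of clones past the threshold under each setting (horizontal axis, clones), split into those above and below the sum, with diamonds for how many of the 10 reported clones were among them. The count ran from 5 to 64 over the settings drawn, and between 5 and 10 of the 10 reported clones passed in each.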

How the data were processed

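The authors deposited GenePix scanner intensities (mean spot brightness and median local background per channel, not normalized) and a table of their log2 ratios of treated to vehicle RNA; per the labels and the methods limma was used, with a version and build not given in the sources used here. Intensities were background-corrected (normexp, offset 50) and normalized by loess within arrays, with 720 alignment and blank spots at weight 0. Exchanged dyes were turned and the 2 spots averaged. Recomputed and deposited ratios correlated at 0.854 or more on every array. The departure was a contrast of 1 limma fit (lmFit, eBayes, prior proportion 0.01) over 12 arrays, two-sided, adjusted over 1816 clones (R 4.3.3, limma 3.58.1, statmod 1.5.0), after tests on simulated data.

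Members and lists were chosen with earlier results of these data known. Clones were named by rule: all with B over 0, the next 4 by B, and the 2 largest departures in each direction that did not pass. Gene and cell type lists could not be applied, since 0 of 1920 clone identifiers matched the RefSeq gene table. Alternatives covered background, normalization, filters, spots, dyes, blocks, pools, weights, threshold, deposited ratios and each array left out.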

Additional observations from a re-analysis of the deposited data

Results flagged for a closer look

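The effect of E2 after CHP differed from the effect of E2 alone, by the limma test of that difference, in the 10 clones with B over 0: by 3.27 in Myt01-008H06, 2.90 in Myt01-009F03, 2.19 in Myt01-004D03, 2.13 in Myt01-010F03, 0.94 in Myt01-005E05 and 0.53 in Myt01-006E02, and by -0.99 in Myt01-005E01, -0.87 in Myt01-007E04, -0.66 in Myt01-004G03 and -0.62 in Myt01-008C01 (log2). Higher after CHP in 6 and lower in 4, the difference has the sign printed for each. The difference is the same departure by which the 10 clones were selected, so it is no further test. If the labels hold, it also contains the shorter CHP exposure of CHP/E2 animals, which cannot be told apart from the effect of E2. In 5 of the 10 clones the adjusted p of the difference was under 0.05 in limma.

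Single arrays far from the other 3 of their group were found in 3 of 57 groups of 4 arrays, over 19 clones, and chance alone would mark about 1 group in 20. Myt01-008H06 measured -0.86 on E2 replicate 1 against -1.49 to -1.42 on the other E2 arrays. Myt01-010F03 measured -0.66 on CHP/E2 replicate 4 against 0.20 to 0.21 on the others. Myt01-015C01 measured -2.14 on E2 replicate 1 against -0.20 to 0.13.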

How the results depend on the processing

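Against 10 clones past the threshold (6 above, 4 below), median centring gave 5 (3 above, 2 below), the adjusted p 5 (4 above, 1 below), spots kept separate with their correlation 37 (16 above, 21 below), a dye term 20 (10 above, 10 below) and array weights 19 (13 above, 6 below). Chosen after seeing the data were 2 further settings: the first residual component as a term gave 64 (5 above, 59 below), and leaving out clones with an SD over 1 in a treatment gave 12. Of the 10 reported clones 5 passed with median centring, 7 with separate spots, 8 with the dye term and the component, and 10 with weights. Other settings gave 7 to 13. The cause was not tested.

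With 1 array left out the count ran from 5 to 17 (4 to 6 above, 1 to 11 below): 5 without CHP replicate 1 or CHP/E2 replicate 3, and 17 without CHP replicate 2. Intervals within ±0.5 numbered 698 to 790 and within ±1 1459 to 1504. Within ±0.5 they numbered 1223 with no background correction, 112 with plain subtraction, 172 with median centring, 286 with the filter on dim probes (of 1037 clones tested) and 321 with the deposited ratios, against 802. Within ±1 subtraction gave 941 and the filter 778, against 1499.

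Replicate numbers did not pair the arrays: 6 of 12 same-numbered pairs had a correlation of deviations over 0.1 (range -0.45 to 0.60), and 4 of 12 arrays correlated best with their own number. With the replicate number as a block 9 clones passed (5 above, 4 below), 7 of them among the 10. Slide as a random block gave 7, 6 of them among the 10. Averaging arrays of 1 treated pool number gave 7, all among the 10.

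No departure of a named clone that passed changed sign. No spot was saturated, so leaving out saturated spots had no effect to measure. On arrays signal over background takes the place of depth: without clones not above background, 1037 were tested and 7 passed, all among the 10.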
